A study of Homo sapiens with 9 samples.

Results

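The messenger RNA of 10 genes by which tumor cells restrain immune attack was examined in 3 pancreatic ductal adenocarcinoma (PDAC) cell lines. The genes were chosen by name from the 42717 genes of the count table: CD274 (PD-L1), PDCD1LG2 (PD-L2), CD276 (B7-H3), VTCN1 (B7-H4), CD47, NECTIN2 (CD112), PVR (CD155), LGALS9 (galectin-9), TNFRSF14 (HVEM) and NT5E (CD73). All 10 symbols were found in the table. The lines S2-007, S2-020 and S2-028 are sublines of SUIT-2, an established human PDAC line, and each was represented by 3 RNA-seq libraries of untreated cells grown in serum-containing medium. In the study, S2-007 carries maspin protein in nucleus and cytoplasm (panMaspin), S2-028 carries it in the cytoplasm only (cytMaspin), and S2-020 has little of it. The study asked how lines that differ in the place of maspin differ in expression. Each maspin pattern was represented by a single subline, so the pattern and the subline cannot be told apart. The labels do not say whether the libraries of a line came from separate cultures, so the p-values measure the spread between these libraries, which may be technical.

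Immune checkpoints are pairs of a ligand on one cell and a receptor on an immune cell that damp the response of the immune cell. PD-L1 and PD-L2 bind PD-1 on T cells, CD155 and CD112 bind TIGIT and the activating receptor DNAM-1, CD47 binds SIRPα on macrophages and blocks engulfment, HVEM binds BTLA and CD160, and galectin-9 binds TIM-3 among other glycoproteins. CD73 is an enzyme of the cell surface that turns AMP into adenosine, which quiets T cells through its own receptors. In PDAC these molecules are studied because the tumor responds poorly to antibodies against PD-1.

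Total counts lay between 60328748 and 86253923 per library, and the 10 most abundant genes took 4.29% to 4.75% of them. The 6 ductal epithelial markers (KRT7, KRT8, KRT18, KRT19, EPCAM and CDH1) summed to 9539 to 10070 CPM (counts scaled to library size) in S2-007, 4308 to 5426 CPM in S2-020 and 15160 to 17760 CPM in S2-028. The 10 leukocyte markers summed to 50.2 to 58.8 CPM in S2-007, 16.7 to 22.6 CPM in S2-020 and 19.3 to 27.4 CPM in S2-028. CD68, a lysosomal gene, gave 41.1 ± 2.52, 7.83 ± 0.641 and 10.4 ± 0.849 CPM of these sums (SD, n = 3), which on average was most of the sum only in S2-007. PTPRC, which defines leukocytes, stayed at 0.301 ± 0.0425, 0.186 ± 0.113 and 0.293 ± 0.0992 CPM (SD, n = 3) for S2-007, S2-020 and S2-028. Of the T cell markers, CD3D had at most 3 counts in every library, whereas CD3E had 0 counts in every S2-007 library, 8 to 22 in S2-020 and 18 to 22 in S2-028, opposite in direction to CD68. The part of these markers in the other results was not tested. CPM here are normalized by TMM (trimmed mean of M-values) over all 9 libraries.

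Against S2-007, the cytMaspin line S2-028 had more RNA of CD274, NECTIN2, PVR and NT5E and less of CD47, LGALS9 and TNFRSF14. S2-020 shared the lower CD47, LGALS9 and TNFRSF14 and the higher NT5E, but not the higher CD274. NECTIN2 (1.499-fold) and PVR (1.29-fold) were also higher in S2-020 than in S2-007, but under the fold threshold of 1.5. A gene was called when edgeR's quasi-likelihood test gave an adjusted p below 0.05 and the change was at least 1.5-fold (0.585 on the log2 scale). In S2-028 against S2-007, 4 of the 9 genes tested were higher and 3 lower, where 10.2% of all 26371 genes tested were higher and 8.19% lower. In S2-020 against S2-007, 1 of 9 was higher and 3 were lower, with 9.57% higher and 12.1% lower over 26657 genes. In S2-028 against S2-020, 3 of 10 were higher and 0 lower (also 0 with DESeq2 and at an unadjusted p under 0.05), with 12.1% higher and 10.1% lower over 26031 genes. The middle value of the log2 fold change over the genes tested was 0.32, -0.21 and 0.21 in these comparisons, against 0.0020, -0.053 and 0.024 for all genes. The comparisons share libraries in pairs and are not independent of each other. In bulk RNA, fewer expressing cells and less RNA per cell cannot be told apart.

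**Figure D1:**
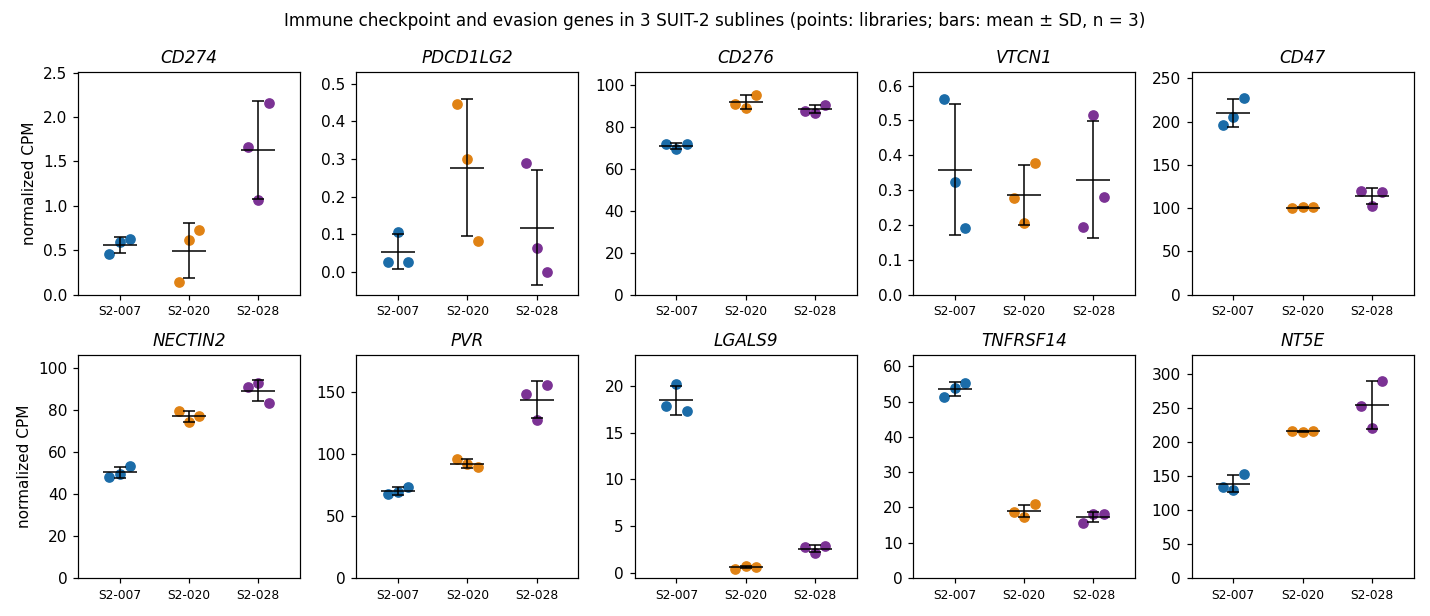
Normalized CPM of the 10 genes (vertical axes, linear, a scale of its own in each panel) in the 9 libraries of S2-007, S2-020 and S2-028; points are libraries and bars give the mean and SD of 3. LGALS9 ran from 17.3 to 20.2 CPM in S2-007 and was at most 2.87 CPM in the other lines, whereas the libraries of VTCN1 and PDCD1LG2 were below 1 CPM throughout.

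Levels per kilobase of 1 chosen transcript of each gene (MANE Select) allow only a rough comparison of genes. The exons that were counted are not known. All annotated exons of PVR hold 10427 bases against 5792 in that transcript, and those of LGALS9 5714 against 1724. On this scale CD47 and NT5E led in S2-007 with levels of 39.6 ± 3.05 and 38.9 ± 3.59 CPM per kb (SD, n = 3), which did not differ beyond their spread. TNFRSF14 followed at 31.4 ± 1.16, then CD276 at 21.5 ± 0.436, NECTIN2 at 18.7 ± 1.01, PVR at 12.1 ± 0.517 and LGALS9 at 10.7 ± 0.883 CPM per kb. In S2-020 NT5E led alone at 60.5 ± 0.252 CPM per kb, ahead of NECTIN2 at 28.6 ± 0.965 and CD276 at 27.8 ± 0.989, which lay within each other's spread. In S2-028 the order was NT5E at 71.3 ± 9.77, NECTIN2 at 33.1 ± 1.85, CD276 at 26.8 ± 0.587, PVR at 24.9 ± 2.59 and CD47 at 21.5 ± 1.80 CPM per kb, with the libraries of PVR overlapping those of both CD276 and CD47. CD274, VTCN1 and PDCD1LG2 were the lowest in S2-007 and S2-028, at 0.022 to 0.448 CPM per kb over both lines. In S2-020 LGALS9, at 0.360 ± 0.0758 CPM per kb, lay near these 3 genes.

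CD274 encodes PD-L1, the main ligand of PD-1. The gene (ID 29126) lies on the plus strand of chromosome 9, from 5450542 to 5470554 in GRCh38.p14. Its RNA was scarce in all lines and highest in S2-028. The counts were 34, 44 and 46 in S2-007, 10, 51 and 52 in S2-020 and 103, 68 and 132 in S2-028, which is 0.454, 0.591 and 0.625 CPM, then 0.139, 0.613 and 0.725 CPM, then 1.66, 1.07 and 2.16 CPM. Every S2-028 library lay above every library of the other lines, while the libraries of S2-020 and S2-007 overlapped. CD274 was 2.93-fold higher in S2-028 than in S2-007 (log2 fold change 1.55, SE 0.33, adjusted p = 6.86e-04) and 3.29-fold higher than in S2-020 (1.72, SE 0.43, adjusted p = 0.00302). Between S2-020 and S2-007 the difference was -0.20 with a 95% interval from -1.23 to 0.82 (adjusted p = 0.796), too wide to place CD274 in one line above the other. Without the S2-020 library of 10 counts that difference was 0.23.

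The promoter of CD274 is shown because interferon-γ is the best known inducer of PD-L1. The sequence is the 250 bases before the RefSeq start, chr9:5450292-5450541 on the plus strand of GRCh38.p14, with motif matches in capitals.
CD274: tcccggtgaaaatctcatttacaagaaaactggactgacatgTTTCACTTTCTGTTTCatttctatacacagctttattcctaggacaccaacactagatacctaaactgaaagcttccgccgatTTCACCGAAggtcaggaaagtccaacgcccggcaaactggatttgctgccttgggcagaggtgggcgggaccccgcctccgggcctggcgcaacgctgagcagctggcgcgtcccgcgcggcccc
The first capitals hold overlapping matches on the minus strand to the core of the interferon-stimulated response element, searched as GAAA, any 2 bases and GAAA, at 208 and 202 bases before the start. The second capitals hold a match to the gamma-activated site, spelled TTCNNNGAA, at 125 bases before the start. Among the 35116 RefSeq promoters, windows of this length held the former in 3.02% and the latter in 6.57% of cases. Of the 9 genes with an entry in the promoter table, CD274 was the only one that matched either motif in this window. AP-1 (TGANTCA), NF-kB (GGG, any 2 bases and TTTCC) and TATA box (TATAAA) letters, searched on both strands and held by 6.57%, 1.73% and 10.7% of promoters, were in none of the 9.

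PDCD1LG2 encodes PD-L2, the second ligand of PD-1, and lies after CD274 on the same strand (ID 80380, chromosome 9, 5510531 to 5571282). It had 2, 8 and 2 counts in S2-007, 32, 25 and 6 in S2-020 and 18, 4 and 0 in S2-028. The libraries of S2-028 overlapped those of both other lines, and a count of 0 allows up to 3 counts at this depth. The gene passed the filter on low counts only in S2-028 against S2-020, where the difference was -1.22 (SE 0.93, 95% interval -3.18 to 0.74, adjusted p = 0.348). Exact two-sided permutation tests on CPM gave p = 0.7 for S2-028 against S2-007 and p = 0.2 for each of the other comparisons, where 3 libraries against 3 cannot go below 0.1. A difference in PD-L2 RNA was not detectable at this depth between S2-028 and either line. With no filter on low counts, PDCD1LG2 was called higher in S2-020 than in S2-007 (2.30, SE 0.90, adjusted p = 0.0433), but not in the fit of all 9 libraries (2.32, adjusted p = 0.104).

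CD276 encodes B7-H3, a B7 family molecule that is abundant on many carcinomas, and VTCN1 encodes B7-H4, which inhibits T cells. CD276 (ID 80381, chromosome 15, 73683944 to 73714514, plus strand) varied little, at 71.6, 69.3 and 71.9 CPM in S2-007, 90.9, 88.8 and 95.2 CPM in S2-020 and 87.8, 86.8 and 90.5 CPM in S2-028. S2-007 lay below both other lines without overlap, by 1.25-fold in S2-028 (0.32, SE 0.060, adjusted p = 2.16e-04) and 1.26-fold in S2-020 (0.34, SE 0.055, adjusted p = 3.44e-05), both under the fold threshold. Between S2-028 and S2-020 the difference was -0.052 with a 95% interval from -0.17 to 0.065. VTCN1 (ID 79679, chromosome 1, 117143587 to 117210927, minus strand) had 14 to 42 counts in S2-007, 17 to 27 in S2-020 and 12 to 33 in S2-028, and the libraries of all 3 lines overlapped. Its differences were -0.12, -0.36 and 0.21, none called, and the interval of the first ran from -1.36 to 1.116, so changes of about the fold threshold were not detectable.

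CD47, the "do not eat me" signal read by macrophages, had less RNA in both other lines than in S2-007. The gene (ID 961) lies on the minus strand of chromosome 3, from 108043091 to 108091031. It reached 196.5, 204.9 and 227.7 CPM in S2-007, 99.6, 101.2 and 101.1 CPM in S2-020 and 119.6, 102.9 and 119.1 CPM in S2-028. No library of one line reached the range of another, with S2-007 far above. CD47 in S2-028 was at 54.5% of S2-007 (-0.88, SE 0.070, adjusted p = 1.59e-09) and in S2-020 at 47.0% (-1.09, SE 0.055, adjusted p = 2.45e-12). S2-028 and S2-020 differed by 0.18 (SE 0.062, adjusted p = 0.0247), which is under the fold threshold.

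NECTIN2 and PVR encode CD112 and CD155, adhesion molecules of the nectin family, and both lie on the plus strand of chromosome 19 (NECTIN2, ID 5819, 44846297 to 44889223, and PVR, ID 5817, 44643910 to 44666162). Both were lowest in S2-007 and highest in S2-028. PVR stood at 67.8, 69.1 and 73.5 CPM in S2-007, 95.9, 91.9 and 89.4 CPM in S2-020 and 149.0, 127.3 and 156.1 CPM in S2-028. The 3 lines were separate in every library, with S2-028 furthest from the rest. PVR in S2-028 was 2.06-fold higher than in S2-007 (1.04, SE 0.073, adjusted p = 1.80e-10) and 1.56-fold higher than in S2-020 (0.64, SE 0.067, adjusted p = 1.70e-07). S2-020 exceeded S2-007 by 0.37 (SE 0.055, adjusted p = 1.66e-05), under the fold threshold. Of the exon bases of PVR, 20.6% lie under annotated genes of the same strand, ENSG00000279095 and CEACAM19. Of the 31-base words of PVR transcripts, 18.7% are shared with ENSG00000279095 and only 0.862% with CEACAM19. The counting of such reads is not given in the sources used here. CEACAM19 itself moved, at 0.937 ± 0.0604, 0.395 ± 0.139 and 4.71 ± 0.138 CPM (SD, n = 3) for S2-007, S2-020 and S2-028, and its part in PVR was not tested.

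NECTIN2 followed the same order with smaller steps, at 48.1, 49.2 and 53.3 CPM in S2-007, 79.5, 74.3 and 76.7 CPM in S2-020 and 90.9, 92.8 and 83.3 CPM in S2-028. The ranges of the 3 lines were separate. The gene was 1.78-fold higher in S2-028 than in S2-007 (0.83, SE 0.066, adjusted p = 1.41e-09). In S2-020 against S2-007 its difference of 0.5837 (SE 0.058, adjusted p = 6.54e-08) lay just inside the fold threshold of 0.585 and was not called, while other settings called it. S2-028 exceeded S2-020 by 0.21 (SE 0.060, adjusted p = 0.00717), under the fold threshold.

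LGALS9 showed the widest spread of the 10 genes. It encodes galectin-9, a secreted lectin with 2 sugar-binding domains, and lies on the plus strand of chromosome 17, from 27631188 to 27649560 (ID 3965). The counts were 1338, 1502 and 1274 in S2-007, 34, 60 and 48 in S2-020 and 172, 139 and 175 in S2-028, or 17.9, 20.2 and 17.3 CPM, then 0.473, 0.721 and 0.669 CPM, then 2.77, 2.18 and 2.87 CPM. The 3 lines were far apart and no libraries overlapped. S2-028 held 14.2% of the S2-007 level (-2.82, SE 0.14, adjusted p = 7.30e-13) and S2-020 held 3.32% (-4.91, SE 0.16, adjusted p = 1.99e-15). S2-028 was 4.18-fold above S2-020 (2.06, SE 0.27, adjusted p = 2.58e-06). LGALS9 shares 22.8% of its 31-base words with other genes, chiefly the near-identical copies LGALS9C (16.2%) and LGALS9B (8.78%), so counts could be split between them. The copies had 0 to 26 counts in any library, and summing them with LGALS9 left all 3 calls as they were.

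TNFRSF14 encodes HVEM, a receptor of the TNF superfamily that acts as the ligand of BTLA, and lies on the plus strand of chromosome 1, from 2554234 to 2563829 (ID 8764). It was high in S2-007 and low to the same degree in the other lines, at 51.4, 53.8 and 55.3 CPM in S2-007, 18.7, 17.3 and 20.9 CPM in S2-020 and 15.7, 18.1 and 18.1 CPM in S2-028. S2-007 stood apart from the rest, and the libraries of S2-020 and S2-028 overlapped. TNFRSF14 in S2-028 was at 32.4% of S2-007 (-1.63, SE 0.079, adjusted p = 5.18e-13) and in S2-020 at 34.7% (-1.53, SE 0.075, adjusted p = 1.52e-12). S2-028 and S2-020 differed by -0.13 with a 95% interval from -0.34 to 0.076 (adjusted p = 0.337). The antisense gene TNFRSF14-AS1 covers 13.3% of its exon bases and was also lower, at 9.81 ± 1.05, 0.997 ± 0.183 and 2.59 ± 0.809 CPM (SD, n = 3) for S2-007, S2-020 and S2-028. The libraries were strand-specific per the labels, but whether the counting used strand is not given in the sources used here.

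The promoters of CD47 and LGALS9, both lower in S2-028 and S2-020 than in S2-007, are printed because they held the most and the fewest CpG of the set. CpG dinucleotides, the sites of DNA methylation, are in capitals. Each is the 250 bases before the RefSeq start in GRCh38.p14, chr17:27630938-27631187 on the plus strand for LGALS9 and chr3:108091032-108091281 read on the minus strand for CD47.
LGALS9: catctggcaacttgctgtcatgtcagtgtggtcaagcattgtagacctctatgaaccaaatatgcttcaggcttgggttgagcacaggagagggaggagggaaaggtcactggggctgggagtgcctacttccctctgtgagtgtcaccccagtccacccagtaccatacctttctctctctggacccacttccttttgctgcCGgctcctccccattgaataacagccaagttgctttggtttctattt
CD47: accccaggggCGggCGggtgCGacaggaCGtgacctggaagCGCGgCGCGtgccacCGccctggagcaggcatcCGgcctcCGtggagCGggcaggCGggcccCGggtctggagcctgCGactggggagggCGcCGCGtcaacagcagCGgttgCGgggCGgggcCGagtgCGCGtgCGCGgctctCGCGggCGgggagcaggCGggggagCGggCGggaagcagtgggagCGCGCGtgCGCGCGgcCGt
The window of LGALS9 held 1 CpG and that of CD47 held 39, where the median over all promoters of the table was 11. The 9 CpG of TNFRSF14, which was also lower in both lines, lay between them, as did the 16 of CD274 and the 28 of NT5E. The part of CpG content in these levels was not tested. Methylation was not measured in these cells.

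NT5E encodes CD73 and lies on the plus strand of chromosome 6, from 85450083 to 85495784 (ID 4907). It was the most abundant of the 10 per kilobase in S2-020 and S2-028. Its levels were 134.1, 128.4 and 152.8 CPM in S2-007, 216.2, 214.4 and 215.4 CPM in S2-020 and 253.0, 219.8 and 289.3 CPM in S2-028. All libraries of S2-028 and S2-020 exceeded those of S2-007, and S2-028 exceeded S2-020 by a narrow gap. NT5E was 1.84-fold higher in S2-028 than in S2-007 (0.88, SE 0.083, adjusted p = 2.03e-08) and 1.52-fold higher in S2-020 (0.61, SE 0.057, adjusted p = 3.29e-08). The latter was close to the fold threshold, and without the second S2-007 library it fell under it (0.57). S2-028 and S2-020 differed by 0.24 (SE 0.071, adjusted p = 0.0104), under the fold threshold.

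**Figure D2:**
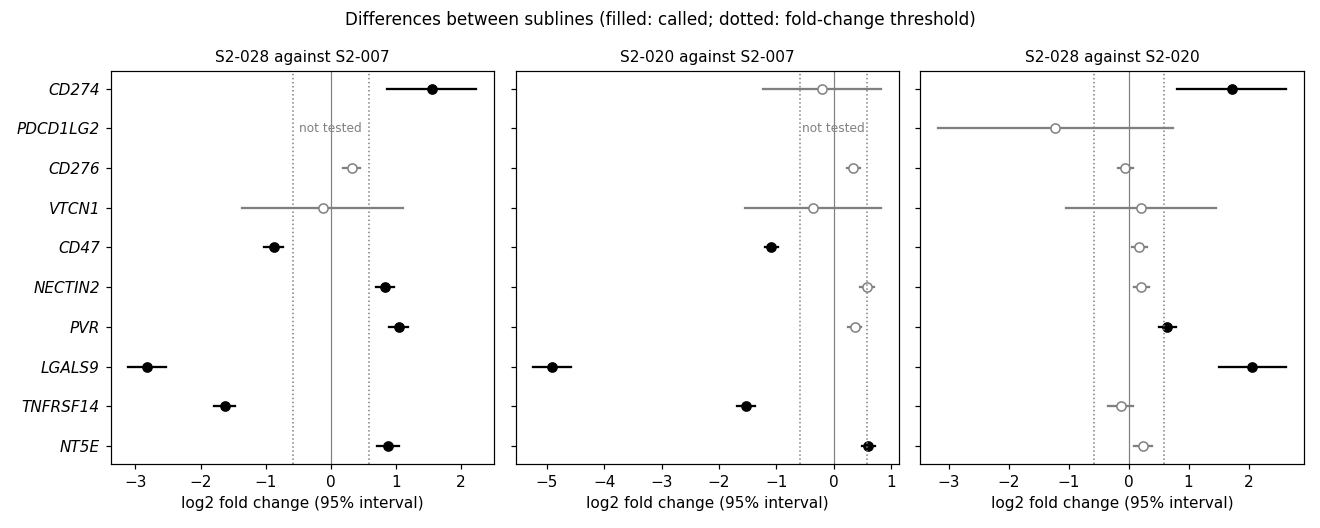
Log2 fold change (horizontal axes) of each gene in the 3 comparisons with its 95% interval; filled points were called and dotted lines mark the threshold of 0.585 in either direction. LGALS9 at -4.91 in S2-020 against S2-007 lay furthest from 0, and the intervals of VTCN1 and PDCD1LG2 crossed 0 wherever they were tested.

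The surroundings of each gene were compared with the gene itself, since a gain or loss of a chromosome segment moves neighbors together. For PVR and NECTIN2 the 50 nearest tested genes were also high in S2-028 against S2-007, with median log2 fold changes of 0.61 and 0.53, and 21 and 19 of them were called higher and 1 lower in each case. These neighborhoods reach at most 0.76 Mb and share genes with each other. In S2-020 against S2-007 their medians were 0.33 and 0.35, close to the values of PVR (0.37) and below that of NECTIN2 (0.58). In S2-028 against S2-020, in which PVR was called higher, the median around it was 0.096. Copy number was not measured, and its part in these levels was not tested. Around CD47, LGALS9 and TNFRSF14 the medians in S2-028 against S2-007 were 0.019, 0.27 and -0.094, against -0.88, -2.82 and -1.63 for the genes themselves. Around CD274 the median was 0.019. Of its nearest tested genes RLN2, a relaxin hormone gene, was higher in S2-028 than in S2-007 (1.28, SE 0.41, adjusted p = 0.0177). PLGRKT (0.30, adjusted p = 0.299), LOC124902114 (-0.097, adjusted p = 0.727) and RIC1 (0.16, adjusted p = 0.142) were not called. RLN2 was also higher in S2-028 than in S2-020 (1.84, SE 0.44, adjusted p = 0.00201). It was not called in S2-020 against S2-007 (-0.59, SE 0.58, adjusted p = 0.479).

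**Figure D3:**
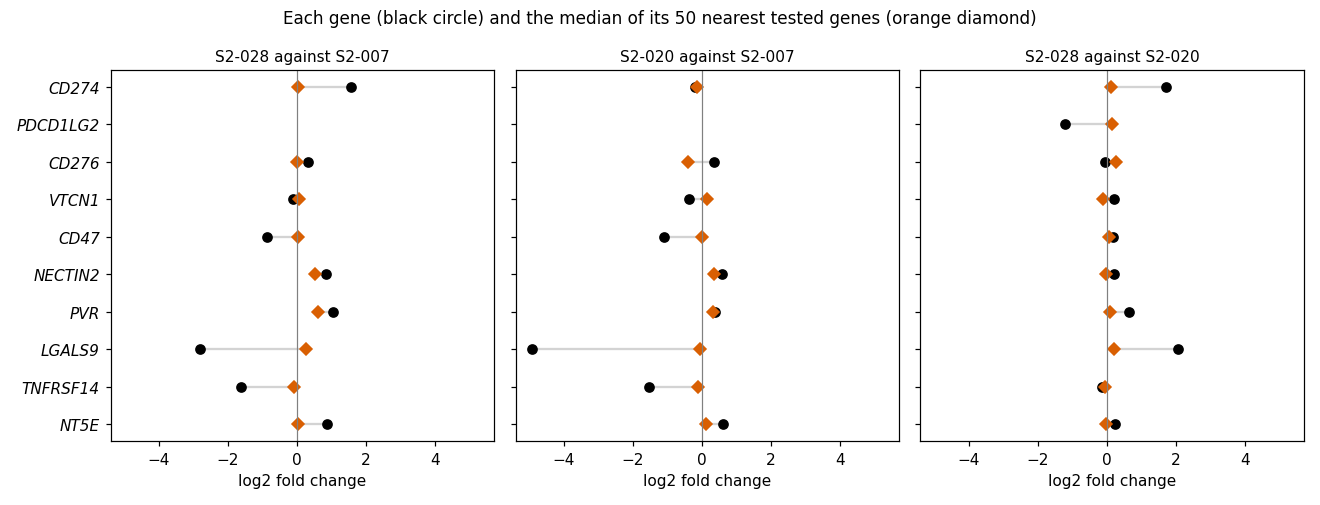
Log2 fold change of each gene (black circles) and the median of the 50 tested genes nearest to it on its chromosome (orange diamonds) in the 3 comparisons; a gene without symbols was not tested. In S2-028 against S2-007 the diamonds of PVR (0.61) and NECTIN2 (0.53) lie to the right of 0 beside their circles. That of LGALS9 (0.27) also lies to the right of 0, while its circle lies far to the left. That of TNFRSF14 (-0.094) stays near 0 away from its circle.

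Genes with the most similar pattern were ranked by the root mean square (RMS) difference of log2 CPM, centred on its mean, over the 9 libraries, among 10524 genes whose average log2 CPM was 3 or more. Nearest to LGALS9 was SERPINB5, the gene of maspin itself, at an RMS difference of 0.207. SERPINB5 stood at 211.5 ± 9.10 CPM in S2-007, 6.55 ± 0.428 CPM in S2-020 and 27.7 ± 2.75 CPM in S2-028 (SD, n = 3). Its log2 fold changes of -2.93, -5.04 and 2.08 in the 3 comparisons lay beside -2.82, -4.91 and 2.06 for LGALS9. DPEP1, a membrane dipeptidase (0.448), and TNFSF15, a TNF family cytokine (0.451), came next. With 3 lines, 9 libraries hold little more than 3 separate levels, so many genes can share a pattern. Nearest to TNFRSF14 were TLCD2 (0.122), METTL7B (0.141) and the tetraspanin CD82 (0.141). CD274 had no close match, with LOC100130238 at 0.547, TCEAL3 at 0.549 and SIM2 at 0.569. PDCD1LG2 had none either, with CA5B at 0.948, CBX2 at 0.967 and SLC1A4 at 0.968. The low counts of CD274 and PDCD1LG2 scatter between libraries, which widens these differences. The lack of a close match is therefore not read as a trait of the genes.

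**Figure D4:**
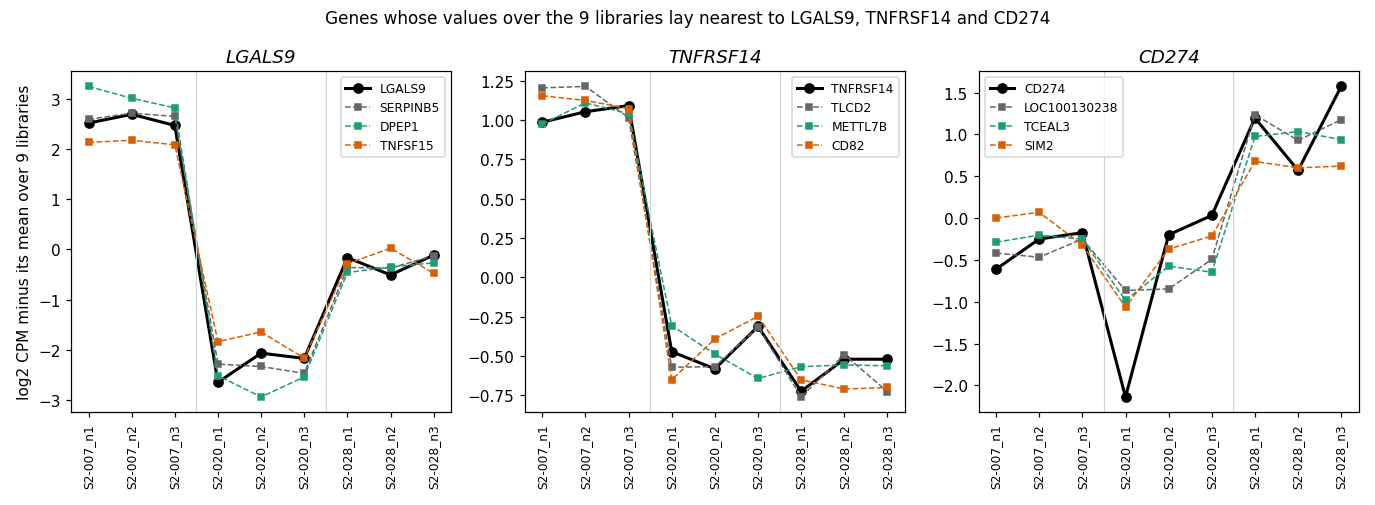
Log2 CPM minus its mean over the 9 libraries (vertical axes) for LGALS9, TNFRSF14 and CD274 (black) and the 3 genes nearest to each (dashed), by library. SERPINB5 lies near LGALS9 at the level of each line (RMS difference 0.207). Within S2-020 LGALS9 is lowest in S2-020_n1 (-2.64 against -2.28 for SERPINB5) and SERPINB5 in S2-020_n3 (-2.47 against -2.17 for LGALS9). The nearest genes of CD274 depart from it, most of all in the S2-020 library of 10 counts.

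Other genes of the same pathways moved in both directions. Of all genes tested, 10.2% were higher and 8.19% lower in S2-028 against S2-007. These shares were 9.57% and 12.1% in S2-020 against S2-007, and 12.1% and 10.1% in S2-028 against S2-020. They stand beside the counts of every list below, and no list was tested as a set. With 3 to 22 genes a list, a count of 1 can lie near these shares. Of the 6 other B7 family ligands tested in S2-028 against S2-007, 3 were called, all lower. These were NCR3LG1, the ligand of the natural killer receptor NKp30 (-2.21, SE 0.083, adjusted p = 7.82e-15), VSIR, the checkpoint VISTA (-1.95, SE 0.10, adjusted p = 2.16e-12), and HHLA2 (-3.49, SE 0.24, adjusted p = 1.72e-10). In S2-020 against S2-007 these 3 and ICOSLG, the ligand of ICOS, were lower (ICOSLG -1.36, SE 0.16, adjusted p = 7.29e-07), which made 4 of 5 tested. In S2-028 against S2-020 ICOSLG was higher and NCR3LG1 lower, of 4 tested. The median of the list was -1.74, -1.36 and -0.16 in the 3 comparisons.

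Among 22 regulators of PD-L1, 5 were higher and 2 lower in S2-028 against S2-007. The interferon-γ receptor chains were the lower ones, IFNGR1 by -1.18 (SE 0.079, adjusted p = 1.02e-10) and IFNGR2 by -0.87 (SE 0.073, adjusted p = 3.69e-09), and STAT2, which carries type I interferon signals, was higher by 1.55 (SE 0.088, adjusted p = 7.37e-12). Both receptor chains were also lower in S2-020 against S2-007 (IFNGR1 -0.96 and IFNGR2 -1.21), where 6 of the list were higher and 5 lower. In S2-028 against S2-020, in which CD274 was higher, 4 were higher and 3 lower, which is near the shares of all genes. The 2 lower in S2-028 against S2-007 are near the share of all genes too. HIP1R, with the smallest adjusted p of the list, was higher by 1.21 (SE 0.068, adjusted p = 2.17e-11), and CMTM6 by 0.62 (SE 0.055, adjusted p = 1.61e-08). IRF1, a direct activator of CD274, was lower by -0.94 (SE 0.061, adjusted p = 1.92e-10), and JAK1 by -0.71 (SE 0.047, adjusted p = 2.39e-10). The part of these genes in the level of CD274 or of PD-L1 protein was not tested.

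In the adenosine pathway, where CD73 acts, 4 genes were higher and 6 lower of 14 tested in S2-028 against S2-007. DPP4, the surface protease CD26 that binds adenosine deaminase, dropped from 141.5 ± 6.79 CPM in S2-007 to 10.6 ± 1.71 CPM in S2-028 and 1.67 ± 0.466 CPM in S2-020 (SD, n = 3). ADA, adenosine deaminase itself, was lower in S2-028 than in S2-007 (-1.41, SE 0.14, adjusted p = 4.20e-08). ENPP1 was also lower in S2-028 than in S2-007 (-2.80, SE 0.19, adjusted p = 9.11e-11). The adenosine receptor genes went both ways. ADORA2A was higher than in S2-007 in both S2-020 (3.01, SE 0.25, adjusted p = 4.16e-09) and S2-028 (1.825, SE 0.26, adjusted p = 8.68e-06). ADORA1 was lower than in S2-007 in both S2-020 (-3.41, SE 0.26, adjusted p = 1.19e-09) and S2-028 (-1.78, SE 0.18, adjusted p = 8.59e-08). In S2-020 against S2-007, 3 were higher and 3 lower of 13 tested, and in S2-028 against S2-020, 4 and 5 of 13.

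Of the 7 genes of the CD47 axis and other anti-phagocytic molecules, 1 was higher and 4 were lower in S2-028 against S2-007. QPCT, 1 of the lower genes, was at most 0.570 CPM in any library. B2M, the light chain of MHC class I, was lower in S2-028 (-1.04, SE 0.058, adjusted p = 4.96e-12) and in S2-020 (-0.96, SE 0.053, adjusted p = 1.03e-11) than in S2-007. THBS1, thrombospondin-1, a soluble ligand of CD47, stood at 261.5 ± 53.5 CPM in S2-007, 1273 ± 154 CPM in S2-020 and 143.0 ± 20.1 CPM in S2-028. In S2-020 against S2-007, 4 genes of this list were higher and 3 lower of 7, and in S2-028 against S2-020, 1 and 2 of 6 tested.

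Among the other nectins and nectin-like molecules, 3 of 7 were called in S2-028 against S2-007, all higher, led by CADM1 (1.76, SE 0.17, adjusted p = 2.45e-08). CADM1 was higher still in S2-020 against S2-007 (2.47, SE 0.14, adjusted p = 1.33e-11). It was called lower in S2-028 than in S2-020 (-0.74, SE 0.12, adjusted p = 3.45e-05). Higher and lower genes numbered 3 and 1 of 7 in S2-020 against S2-007 and 2 and 2 of 7 in S2-028 against S2-020. NECTIN1, an adhesion molecule and herpesvirus receptor, was lower in S2-020 than in S2-007 (-3.06, adjusted p = 1.71e-18) and higher in S2-028 than in S2-020 (2.79, adjusted p = 2.53e-17), at 17.2 ± 0.299 CPM against 140.6 ± 8.61 CPM in S2-007 and 118.5 ± 3.67 CPM in S2-028. Of the other galectins, 1 was higher and 3 lower of 8 in S2-028 against S2-007, 2 and 3 of 8 in S2-020 against S2-007, and 2 and 5 of 9 in S2-028 against S2-020. LGALS9B, LGALS7 and LGALS7B, which are among these calls, were at most 0.407, 0.557 and 0.919 CPM in any library. LGALS9B, the 1 higher in S2-028 against S2-007, is a copy that could share reads with LGALS9. LGALS3 was lower in S2-028 (-1.29, SE 0.067, adjusted p = 1.46e-12) and S2-020 (-2.25, SE 0.056, adjusted p = 4.62e-17) than in S2-007. LGALS4, a galectin of the gut epithelium, stood at 207.0 ± 6.10 CPM in S2-007, 95.5 ± 17.9 CPM in S2-020 and 0.161 ± 0.141 CPM in S2-028.

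In the HVEM axis, 1 gene was higher and 1 lower of 6 in S2-028 against S2-007, 1 of 6 was called, higher, in S2-020 against S2-007, and 2 were higher and 2 lower of 6 in S2-028 against S2-020. LTB and LTA, the genes higher in S2-028, were at most 1.03 and 0.376 CPM in any library. TNFRSF6B, a decoy receptor for LIGHT and FasL, was higher in S2-020 than in S2-007 (1.60, SE 0.098, adjusted p = 4.50e-11) and lower in S2-028 than in S2-007 (-0.86, SE 0.078, adjusted p = 1.25e-08). Of the NKG2D ligands, stress signals read by natural killer cells, 1 was higher and 1 lower of 7 in S2-028 against S2-007, 3 of 8 were called, all higher, in S2-020 against S2-007, and 3 of 8, all lower, in S2-028 against S2-020. For the HVEM axis and the NKG2D ligands, 1 higher and 1 lower in S2-028 against S2-007 lie near the shares of all genes. Of the receptors found on immune cells, SIRPA was higher in S2-028 than in S2-007 (1 of 9 called), SIRPA and PVRIG were higher in S2-020 than in S2-007 (2 of 12), and LAG3 was lower in S2-028 than in S2-020 (1 of 10). These receptor counts also lie near the shares of all genes. LAG3 had only 2 to 12 counts in S2-028 and 30 to 53 in S2-020. PDCD1, the gene of PD-1, averaged 0.238 to 0.507 CPM in the 3 lines. Of the 3 complement regulators, CD55 was lower in S2-028 (-3.88, SE 0.096, adjusted p = 9.55e-18) and, with CD59 (-0.99, SE 0.053, adjusted p = 6.17e-12), in S2-020 (-3.92, SE 0.083, adjusted p = 3.70e-18) than in S2-007.

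**Figure D5:**
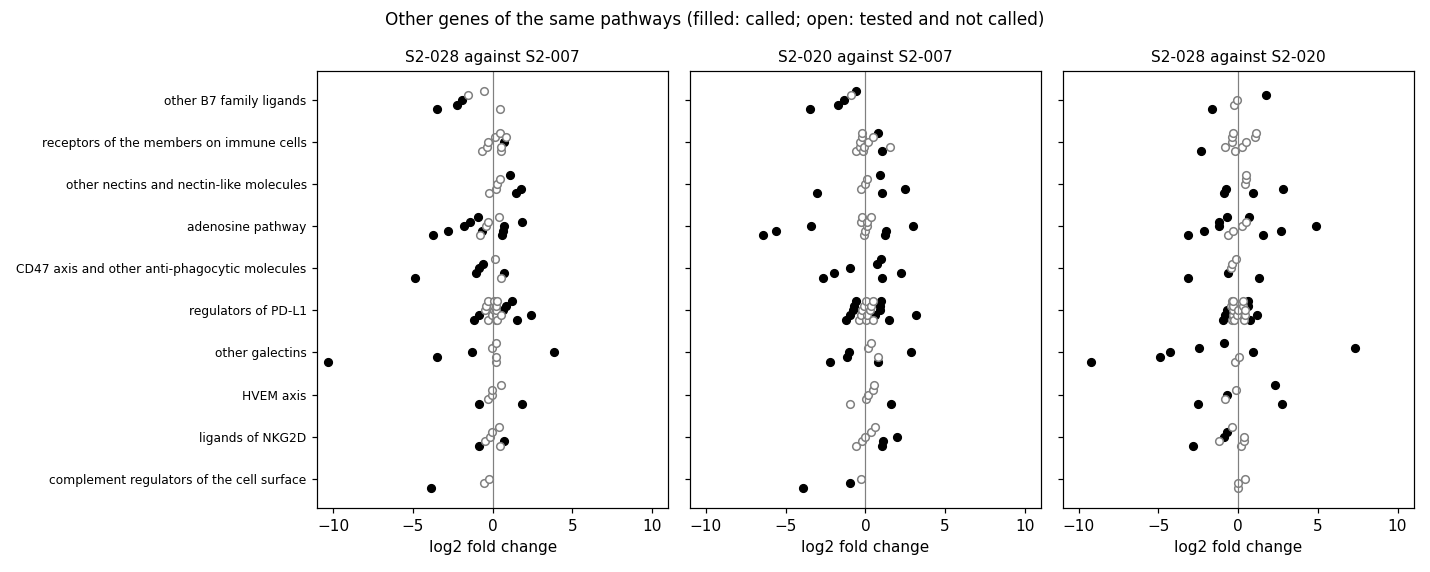
Log2 fold changes (horizontal axes) of the genes in the 10 pathway lists for the 3 comparisons; filled points were called, open points were tested and not called, and small vertical offsets only separate points. LGALS4 lies furthest left in S2-028 against S2-007 at -10.31. In that comparison the regulators of PD-L1 ran from -1.18 to 2.41, with 5 called higher and 2 lower of 22.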

How the data were processed

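RNA of 9 libraries, 3 each of S2-007, S2-020 and S2-028, was sequenced on strand-specific libraries per the labels. The authors deposited counts of reads mapped to each of 42717 genes, as whole numbers without normalization. The submitters' processing notes name Trimmomatic 0.39, BWA 0.7.17, SAMtools 1.12, edgeR 3.16.5 and GRCh38.p14. The counting tool and its treatment of strand and of reads with several matches are not given in the sources used here. BWA is not a spliced aligner, and reads over exon junctions can be lost. A further 18 columns of signal, which the authors scaled from the counts, and 2 lines that name no gene were not used.

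Counts were analysed with edgeR 4.0.16 in R 4.3.3. Each comparison was fitted on its 6 libraries, with filterByExpr (minimum count 10, minimum total 15), TMM and the quasi-likelihood F-test, and p-values were adjusted by Benjamini-Hochberg over all genes tested. The script was tested on simulated data. Levels per kilobase use the MANE Select transcript of GENCODE. Promoters come from the RefSeq table of GRCh38.p14, where 9 of the 10 genes matched. Named genes were all 10 members, at most 4 called genes a list and comparison by the smallest adjusted p, the 3 nearest profiles for the 4 members with the widest range, and the nearest tested neighbors of CD274. Single genes outside that rule (PDCD1, LGALS7, LGALS7B, QPCT and the overlapping and marker genes) were chosen after their values were seen. The members and lists were chosen with earlier results of these data known. Alternatives were DESeq2 1.42.0, a likelihood ratio test, other size factors and filters, all libraries in 1 fit, a 1.5-fold null hypothesis, a replicate block, leaving out each library, and summed galectin-9 copies.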

Additional observations from a re-analysis of the deposited data

How the results depend on the processing

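Over the alternatives of the member values with a test in the main analysis, 406 kept their direction and their side of the threshold, 8 (all NECTIN2) passed it only under the alternative, 3 no longer passed it and 5 reversed. PDCD1LG2 in S2-020 against S2-007, which was not tested there, is outside this tally. The number of genes of the set called higher in S2-020 against S2-007 was 1, became 2 with DESeq2, RLE size factors, no filter on low counts or all 9 libraries in 1 fit, became 0 with a 1.5-fold null hypothesis, and ran from 1 to 3 when a library was left out. The added gene was PDCD1LG2 with no filter (2.30) and NECTIN2 with the other 3 settings (0.61). Among left-out libraries, NECTIN2 was added without S2-007 replicate 2 or 3 or S2-020 replicate 2 or 3 (0.585 to 0.649) and PDCD1LG2 without S2-007 replicate 2 (3.27) or S2-020 replicate 3 (2.72), and NT5E was lost without S2-007 replicate 2 (0.57). The same number was 1 with the replicate block when the filter on low counts was held, and 2 in a replicate block fit whose filter was set from the blocked design. The latter fit was run first, and the former was adopted after its calls were seen because it changes 1 choice at a time. Deviations of libraries with the same replicate number correlated at -0.047 to 0.137, and those with unlike numbers at -0.191 to 0.169. Such weak values cannot settle whether libraries with the same number were prepared together. The replicate block moved no count of all genes called by over 1.5 times. With a library left out, VTCN1 ran from -0.60 to 0.37 in S2-028 against S2-007, from -0.64 to 0.14 in S2-020 against S2-007 and from -0.26 to 0.47 in S2-028 against S2-020, and CD274 from -0.58 to 0.23 in S2-020 against S2-007. With the 1.5-fold null hypothesis NT5E in S2-020 against S2-007 (adjusted p = 0.632) and PVR in S2-028 against S2-020 (adjusted p = 0.364) were not called, and the genes called overall were 2977, 3639 and 3638 against 4858, 5769 and 5788. PDCD1LG2 ran from -3.05 to -0.63 in S2-028 against S2-020 with a library left out. A minimum of 10 counts in every library gave no value for PDCD1LG2. Low counts limit CD274, VTCN1 and PDCD1LG2.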
